A study of Mus musculus with 6 samples.

Results

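The RNA levels of 10 members of the BCL2 family of apoptosis regulators were compared between mouse embryonic stem cells (ESCs) and the epiblast-like cells (EpiLCs) made from them. The members were taken by gene symbol from a table of 24736 genes, in which all 10 were found and had enough counts to be tested. They fall into 3 roles. Bcl2, Bcl2l1 and Mcl1 are anti-apoptotic, Bax and Bak1 are the effectors, and Bcl2l11, Bbc3, Pmaip1, Bid and Bik are BH3-only genes. Both groups were made from the WT line of the study, the XY HM1 TetON ESC line, with 3 biological replicates each. ESCs were collected undifferentiated at 0 h, having been grown on a layer of feeders, embryonic fibroblasts that no longer divide, in knockout DMEM with 10% serum and 1000 U/ml LIF. EpiLCs were collected after 48 h in N2B27 medium containing bFGF at 10 ng/ml and LGK974, a blocker of WNT secretion, at 5 µM, following separation from feeders by adhesion. The time and the media differ together between the groups, and their parts in any difference cannot be told apart.

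Apoptosis through mitochondria is decided at the outer mitochondrial membrane by proteins of this family. The effectors BAX and BAK open pores in that membrane and release cytochrome c, the anti-apoptotic proteins hold effectors and BH3-only proteins in check, and the BH3-only proteins carry death signals to both. Pluripotent cells are known to be sensitive to this route of cell death, and the family is studied in them for that reason.

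All of these proteins share the BH3 helix, by which BH3-only proteins dock into the groove of their anti-apoptotic partners. The core of that helix is a leucine, 3 residues of any kind, and then a glycine or alanine followed by an aspartate. To show what the members have in common at the level of sequence, the coding bases around this core are given for the 9 members in which they are shown, from GENCODE vM21 transcripts on GRCm38, the assembly that mm10 also names. Each run reads 5′ to 3′ along the coding strand, and capitals mark the codons of the leucine, of the glycine or alanine, and of the aspartate.
Bcl2 (chr1:106712575-106712607, minus strand, exon 1 of 2): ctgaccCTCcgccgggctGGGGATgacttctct
Bcl2l1 (chr2:152829697-152829729, minus strand, exon 2 of 3): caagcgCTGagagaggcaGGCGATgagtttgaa
Mcl1 (chr3:95659430-95659462, plus strand, exon 1 of 3): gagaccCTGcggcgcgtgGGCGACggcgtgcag
Bax (chr7:45465997-45466029, minus strand, exon 3 of 6): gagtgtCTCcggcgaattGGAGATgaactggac
Bak1 (chr17:27022531-27022563, minus strand, exon 4 of 6): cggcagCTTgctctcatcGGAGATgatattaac
Bcl2l11 (chr2:128147144-128147176, plus strand, exon 3 of 4): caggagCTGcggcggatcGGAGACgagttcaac
Bbc3 (chr7:16313767-16313799, plus strand, exon 3 of 4): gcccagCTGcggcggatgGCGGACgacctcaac
Bid (chr6:120897289-120897321, minus strand, exon 4 of 6): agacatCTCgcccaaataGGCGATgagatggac
Bik (chr15:83543078-83543110, plus strand, exon 3 of 5): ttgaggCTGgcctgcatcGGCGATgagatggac

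The pattern occurred once in the coding sequence of each of the 9 genes, and the 33 bases shown lay within 1 exon in every case. Of the 9 cores, 8 had a glycine codon at the position before the aspartate, whereas Bbc3 had an alanine codon there. The alanine was allowed in the pattern after Bbc3 had been found to lack the glycine form. The core is present in anti-apoptotic, effector and BH3-only genes, so it does not separate the roles among which the RNA levels are compared below.

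Totals of expected counts ranged from 16967741 to 35096210 per library, and 3 counts corresponded to between 0.0855 and 0.177 CPM (the count scaled to the library total), which covers counting error only. Levels are given as TPM, a transcript abundance scaled for length that sums to 1000000 in each library and can be compared between genes. Differences are log2 fold changes of EpiLC over ESC from edgeR's quasi-likelihood test on rounded expected counts, in which a gene was called at a Benjamini-Hochberg adjusted p of at most 0.05 over the 14468 genes tested. Of these, 45.4% were called, 22.6% higher and 22.8% lower in EpiLCs, and 20.2% were called with an absolute log2 fold change above 1. The labels fitted the markers of the cells, as 6 of 6 naive markers were called lower and 5 of 5 formative markers higher in EpiLCs, with summed levels from 1465 to 1936 TPM in ESCs against 47.1 to 67.3 TPM in EpiLCs, and from 293 to 399 TPM against 2055 to 2125 TPM. Markers of other cells also differed between the groups, as 8 of 13 tested fibroblast markers and 5 of 6 primitive endoderm markers were called lower in EpiLCs, all by more than 1 on the log2 scale, and the part of such cells in the differences of the members was not tested. Fibroblast markers were highest in ESC replicate 2. The summed level of 14 of these was 1834 TPM in ESC replicate 2, against 389 and 140 TPM in ESC replicates 1 and 3 and 95.7 to 105 TPM in EpiLCs, and 14 of 14 were highest in it among the ESC libraries. Of these markers Lum, with at most 5 counts in a library, was at 0 in ESC replicate 3 and EpiLC replicates 1 and 2, while Col1a1 measured 28.3 TPM in ESC replicate 3 and 3.08 to 13.9 TPM in EpiLCs, and Thy1 20.1 to 23.8 TPM in EpiLCs. Summed levels of 6 primitive endoderm markers were 63.6, 40.4 and 35.4 TPM in ESC replicates 1, 2 and 3 and 4.0 to 5.43 TPM in EpiLCs. In bulk RNA, fewer cells of a type and less RNA per cell cannot be told apart.

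Among the members, Bcl2l11, Bcl2 and Bax were called higher in EpiLCs, Mcl1 and Bid were called lower, and the other 5 were not called. The share of 5 of 10 is near the 45.4% of all genes tested, and is read as no more than that background. With an absolute log2 fold change above 1, 1 member rose (Bcl2l11) and 1 fell (Mcl1), beside 20.2% of all genes. ESC and EpiLC libraries did not overlap in TPM for 6 of the 10 members, against 59.5% of all genes tested. The median log2 fold change of the members was 0.26, and that of all genes tested was -0.0017. The plot of levels by library shows the range of the members, from Bax at 272 and 346 TPM to Bik at 1.70 and 2.22 TPM (means of ESCs and EpiLCs).

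**Figure D1:**
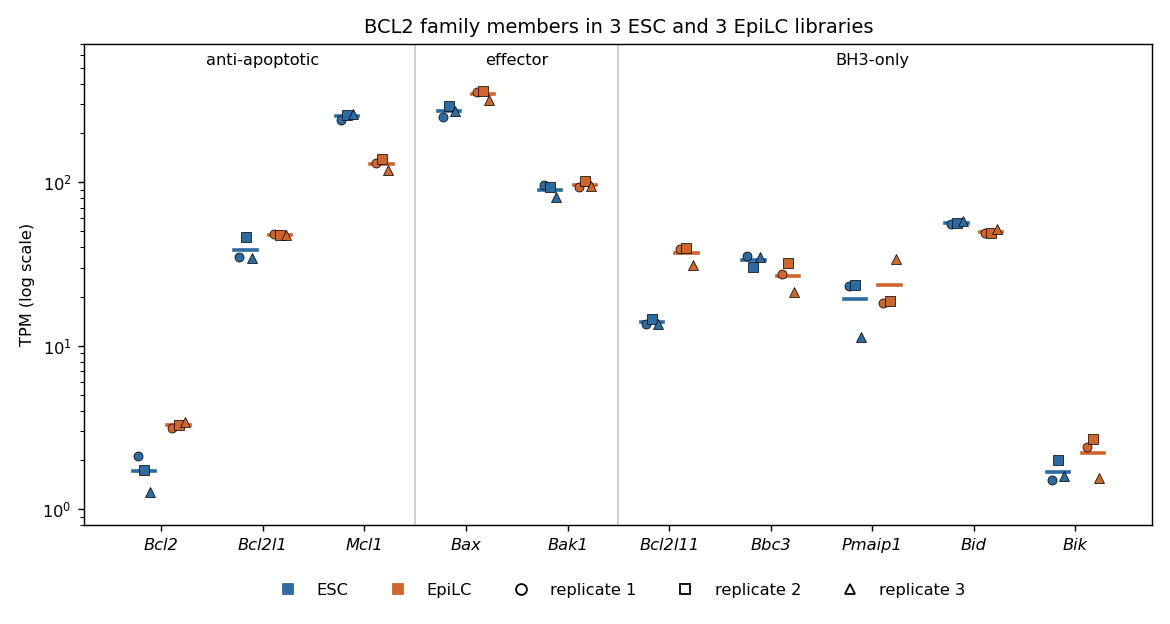
Levels of the 10 members (TPM, log axis) in each of 3 ESC and 3 EpiLC libraries, grouped by role, where each point is a library and each bar the mean of its group. The Mcl1 points of the EpiLCs (118 to 139 TPM) all sit below those of the ESCs (239 to 262 TPM), the Bcl2l11 points of the EpiLCs (31.0 to 39.8 TPM) all sit above those of the ESCs (13.6 to 14.6 TPM), and the Pmaip1 points of both groups are mixed.

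Mcl1, the anti-apoptotic gene with the highest level, fell in EpiLCs. MCL1 is a short-lived protein whose amount is known to follow its synthesis closely and which restrains BAK and BIM. Its level was 238.72, 259.23 and 261.50 TPM in ESC replicates 1, 2 and 3 and 130.35, 139.00 and 118.10 TPM in EpiLC replicates 1, 2 and 3. Every EpiLC library was far below every ESC library, and the replicates of a group were close to each other. The means were 253 ± 12.5 TPM and 129 ± 10.5 TPM (SD, n = 3). On the scale of the counts the log2 fold change was -1.02 (SE 0.07, 95% interval -1.20 to -0.85, edgeR adjusted p = 1.61e-04), which is a fold of 0.492. Without ESC replicate 2, the library with the highest fibroblast markers, it was -1.01.

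Bcl2l1, which encodes the anti-apoptotic protein BCL-XL, was not called. It measured 35.02, 46.50 and 34.19 TPM in ESC replicates 1, 2 and 3 and 47.91, 47.48 and 47.89 TPM in EpiLC replicates 1, 2 and 3. The EpiLC libraries were nearly equal and above all ESC libraries in TPM, though the groups overlapped in TMM-normalised CPM, and ESC replicate 2 was closer to the EpiLCs than to the other ESC libraries. The log2 fold change was 0.27 (SE 0.12, 95% interval -0.01 to 0.55, edgeR adjusted p = 0.101). Without ESC replicate 2 it was 0.41 and passed the threshold (edgeR adjusted p = 0.00371). ESC replicate 2 exceeded the mean of the other ESC libraries by 0.39 in log2 CPM for Bcl2l1, and the part of its high fibroblast markers in this was not tested. The gene also makes a short, pro-apoptotic splice form, and the counts per gene do not separate the forms.

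Bcl2, the founding anti-apoptotic gene of the family, rose from a low level. It measured 2.13, 1.74 and 1.27 TPM in ESC replicates 1, 2 and 3 and 3.15, 3.28 and 3.42 TPM in EpiLC replicates 1, 2 and 3. No EpiLC library overlapped the ESCs, whose own values were spread more widely. These levels rest on 76 to 107 counts per ESC library and 224 to 280 counts per EpiLC library. The log2 fold change was 0.82 (SE 0.21, 95% interval 0.32 to 1.32, edgeR adjusted p = 0.0178). Leaving out EpiLC replicate 1 left 0.77, which was not called (edgeR adjusted p = 0.0720).

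Of the effectors, Bax rose slightly and Bak1 was not called. Bax measured 251.31, 291.72 and 274.01 TPM in ESC replicates 1, 2 and 3 and 357.87, 363.23 and 316.33 TPM in EpiLC replicates 1, 2 and 3. The groups did not overlap, with EpiLC replicate 3 the nearest to the ESCs. Its log2 fold change was 0.29 (SE 0.08, 95% interval 0.10 to 0.48, edgeR adjusted p = 0.0241). The call rested on single libraries, since the adjusted p was 0.0764 without ESC replicate 1, 0.0896 without EpiLC replicate 1 and 0.0798 without EpiLC replicate 2. Bak1, whose protein sits in the mitochondrial membrane already in healthy cells, measured 95.60, 93.39 and 80.94 TPM in ESC replicates 1, 2 and 3 and 92.87, 101.76 and 94.31 TPM in EpiLC replicates 1, 2 and 3. The groups overlapped, and the log2 fold change of 0.05 (SE 0.08, 95% interval -0.13 to 0.23, edgeR adjusted p = 0.638) turned to -0.01 without ESC replicate 3 and was 0.02 to 0.08 without any other library.

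Bcl2l11 had the largest difference of the 10 members. It encodes BIM, a BH3-only protein that binds every anti-apoptotic member and can also activate the effectors. Its level was 13.64, 14.61 and 13.64 TPM in ESC replicates 1, 2 and 3 and 39.32, 39.75 and 30.99 TPM in EpiLC replicates 1, 2 and 3. The ESC libraries were nearly equal, the EpiLC libraries were all higher, and EpiLC replicate 3 was the lowest of these. The means were 13.96 ± 0.560 TPM and 36.7 ± 4.94 TPM (SD, n = 3), and the counts were 510 to 807 and 2141 to 3093 per library. The log2 fold change was 1.47 (SE 0.11, 95% interval 1.22 to 1.72, edgeR adjusted p = 1.61e-04), a fold of 2.77, and it was 1.51 without ESC replicate 2.

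Bid, whose protein links death receptors to mitochondria once it has been cleaved by caspase 8, was called slightly lower. It measured 55.81, 55.96 and 57.73 TPM in ESC replicates 1, 2 and 3 and 48.90, 48.68 and 51.91 TPM in EpiLC replicates 1, 2 and 3. The groups did not overlap and both were tight. The log2 fold change was -0.23 (SE 0.07, 95% interval -0.40 to -0.06, edgeR adjusted p = 0.0347), and 7 of 14 alternative fits did not call it, with adjusted p-values up to 0.140. It was lost on leaving out ESC replicate 1 (0.0566), ESC replicate 3 (0.0771), EpiLC replicate 1 (0.140) or EpiLC replicate 2 (0.134), values that are adjusted p from edgeR.

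The remaining BH3-only genes were not called. Bbc3 encodes PUMA, a classical target of p53, and measured 35.46, 30.17 and 34.69 TPM in ESC replicates 1, 2 and 3 and 27.39, 31.85 and 21.30 TPM in EpiLC replicates 1, 2 and 3. EpiLC replicate 2 lay among the ESCs, and the log2 fold change was -0.37 (SE 0.15, 95% interval -0.73 to -0.02, edgeR adjusted p = 0.0821), or -0.23 without EpiLC replicate 3. Pmaip1 encodes NOXA, which binds MCL1 by preference, and measured 23.22, 23.43 and 11.31 TPM in ESC replicates 1, 2 and 3 and 18.23, 18.89 and 33.85 TPM in EpiLC replicates 1, 2 and 3. The 3rd replicate was the odd one in each group, lowest among the ESCs and highest among the EpiLCs. Its log2 fold change was 0.25 (SE 0.35, 95% interval -0.57 to 1.07, edgeR adjusted p = 0.579), and the value was -0.01 without ESC replicate 3, -0.10 without EpiLC replicate 3 and 0.39 to 0.41 without any other library. EpiLC replicate 3 also had the highest Nanog level of the EpiLCs, 22.48 TPM against 7.72 and 5.95 TPM. The other naive markers were divided. Esrrb and Zfp42 were highest in EpiLC replicate 3 among the EpiLCs, Tbx3 and Tfcp2l1 were lowest in it, and Klf4 lay in between. Whether any of these goes with the Pmaip1 level of this library was not tested. Bik, which acts at the endoplasmic reticulum, measured 1.52, 1.99 and 1.59 TPM in ESC replicates 1, 2 and 3 and 2.40, 2.71 and 1.56 TPM in EpiLC replicates 1, 2 and 3. With 14 to 38 counts per library the groups overlapped, and its log2 fold change was 0.35 (SE 0.31, 95% interval -0.38 to 1.07, edgeR adjusted p = 0.385). It was 0.20 without EpiLC replicate 2 and 0.54 without EpiLC replicate 3. The upper bound for both Pmaip1 and Bik was 1.07, so their intervals do not exclude a difference of 1 on the log2 scale.

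**Figure D2:**
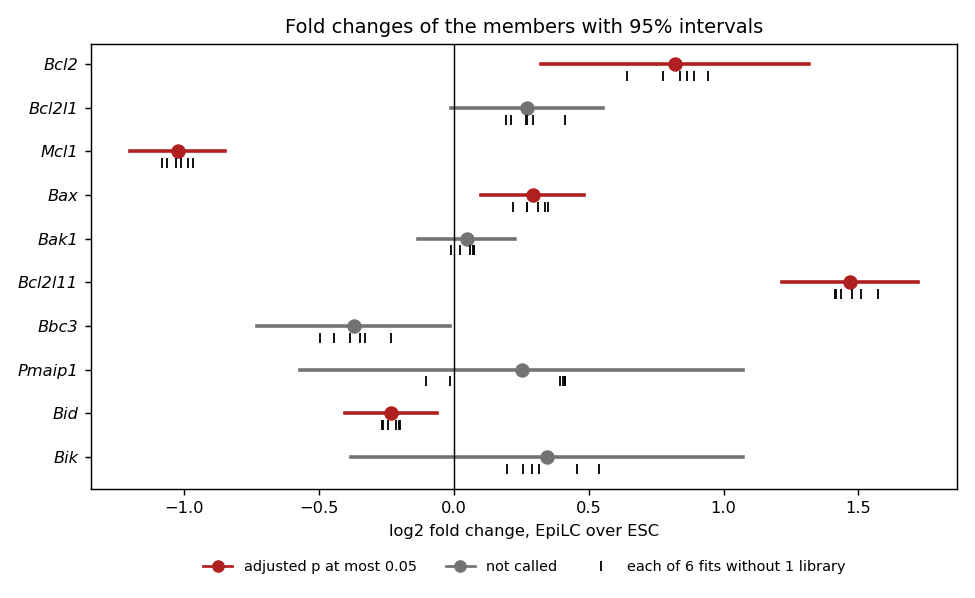
Log2 fold change of EpiLC over ESC for each member (point) with its 95% interval (line), in red where the edgeR adjusted p was at most 0.05 and in grey otherwise, and with ticks for the 6 fits that leave out 1 library. The interval of Bcl2l11 (1.22 to 1.72) and that of Mcl1 (-1.20 to -0.85) lie farthest from 0, and those of Pmaip1 and Bik are the widest.

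Bcl2l11 and Mcl1 kept their calls in 14 of 14 alternative fits, with log2 fold changes from 1.32 to 1.57 and from -1.08 to -0.97. How these values depend on a single library was looked at across the family as well. In TPM, 5 members were highest in ESC replicate 2 among the ESC libraries, while 37.5% of all genes tested were.

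Promoter sequences are shown for Mcl1 and Bcl2l11, because these members moved in opposite directions by more than 1 on the log2 scale. The sequences are the 250 bases before an annotated start, from RefSeq on GRCm38.p6, and for Bcl2l11 the more upstream of its listed starts. The window of Mcl1 lies inside the gene as listed (chr3:95656944-95663179), so its start is not the first base of the listed gene. Capitals mark matches on either strand to the GC box GGGCGG, the CCAAT box CCAAT and the core of the forkhead motif GTAAACA.
Mcl1 (chr3:95658471-95658720, plus strand): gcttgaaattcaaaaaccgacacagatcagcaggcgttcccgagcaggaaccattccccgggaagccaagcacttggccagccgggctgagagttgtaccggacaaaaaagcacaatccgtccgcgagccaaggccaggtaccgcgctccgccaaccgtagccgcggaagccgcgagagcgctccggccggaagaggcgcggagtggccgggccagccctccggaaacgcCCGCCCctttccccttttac
Bcl2l11 (chr2:128125788-128126037, plus strand): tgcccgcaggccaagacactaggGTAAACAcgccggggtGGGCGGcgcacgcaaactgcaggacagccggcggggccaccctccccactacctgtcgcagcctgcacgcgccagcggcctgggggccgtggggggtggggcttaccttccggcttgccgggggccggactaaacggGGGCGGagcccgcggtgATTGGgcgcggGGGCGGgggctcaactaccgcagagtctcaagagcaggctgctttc

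In windows of 250 bases before to 50 after the start, Mcl1 had 33 CpG dinucleotides and 65.7% GC, and this start of Bcl2l11 had 27 CpG and 71.0% GC. The median of all 32851 promoter windows was 7 CpG and 52.7% GC. Mcl1 had 1 GC box, at position -20, and Bcl2l11 had 3, at -211, -74 and -46, with a CCAAT box at -57 and a forkhead core at -227 (bases from the start to the first base of the match). Promoter windows were listed for 8 of the members, 13 in all, and the GC box was present in 9 of the 13, against 35.7% of all windows. The CCAAT box was present in 3 of the 13 (37.4% of all windows), the forkhead core in 2 (3.6%), and the letters TATAAA (13.6%) and TTCNNNGAA, a palindrome bound by STAT proteins (8.3%), in 0. These matches describe the letters of the windows only, and some windows of Bbc3 overlap each other.

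The order of the members by level was similar but not the same in both groups, and the roles were interleaved in it. In ESCs, Bax and Mcl1 were the highest with ranges that overlapped (251 to 292 and 239 to 262 TPM), followed by Bak1 and Bid, while Bcl2l1 and Bbc3 overlapped each other, as did Pmaip1 and Bcl2l11, and Bcl2 and Bik at the bottom. In EpiLCs, Bax stood alone at the top (316 to 363 TPM), above Mcl1 (118 to 139 TPM), Bak1 (92.9 to 102 TPM), Bid (48.7 to 51.9 TPM) and Bcl2l1 (47.5 to 47.9 TPM). Bcl2l11, Bbc3 and Pmaip1 came next and overlapped each other, and Bcl2 (3.15 to 3.42 TPM) lay above Bik (1.56 to 2.71 TPM). By the means of the groups Bcl2l11 was in the 8th place in ESCs and the 6th in EpiLCs, but in replicate 3 it was above Pmaip1 in the ESCs and below it in the EpiLCs.

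Summed by role, the level of the anti-apoptotic members was lower and that of the effectors and of the BH3-only members was higher in EpiLCs, as the plot of summed levels shows. The anti-apoptotic sum was 276, 307 and 297 TPM in ESC replicates 1, 2 and 3 and 181, 190 and 169 TPM in EpiLC replicates 1, 2 and 3. The effector sum was 347, 385 and 355 TPM in ESCs and 451, 465 and 411 TPM in EpiLCs, in the same order. The BH3-only sum was 130, 126 and 119 TPM in ESCs and 136, 142 and 140 TPM in EpiLCs. None of the 3 sums overlapped between the groups, and their ratios of EpiLC to ESC means were 0.614, 1.22 and 1.11. Anti-apoptotic and BH3-only members did not all move with their sum. In means of ESCs and EpiLCs, Mcl1 fell (253 to 129 TPM). Bcl2l1 (38.6 to 47.8 TPM) and Bcl2 (1.71 to 3.28 TPM) were higher in EpiLCs. Of the BH3-only members, Bcl2l11 (13.96 to 36.7 TPM), Pmaip1 (19.3 to 23.7 TPM) and Bik (1.70 to 2.22 TPM) were higher. Bid (56.5 to 49.8 TPM) and Bbc3 (33.4 to 26.8 TPM) were lower. Sums and ratios are descriptions of these libraries and were not tested, and RNA levels do not give protein levels.

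**Figure D3:**
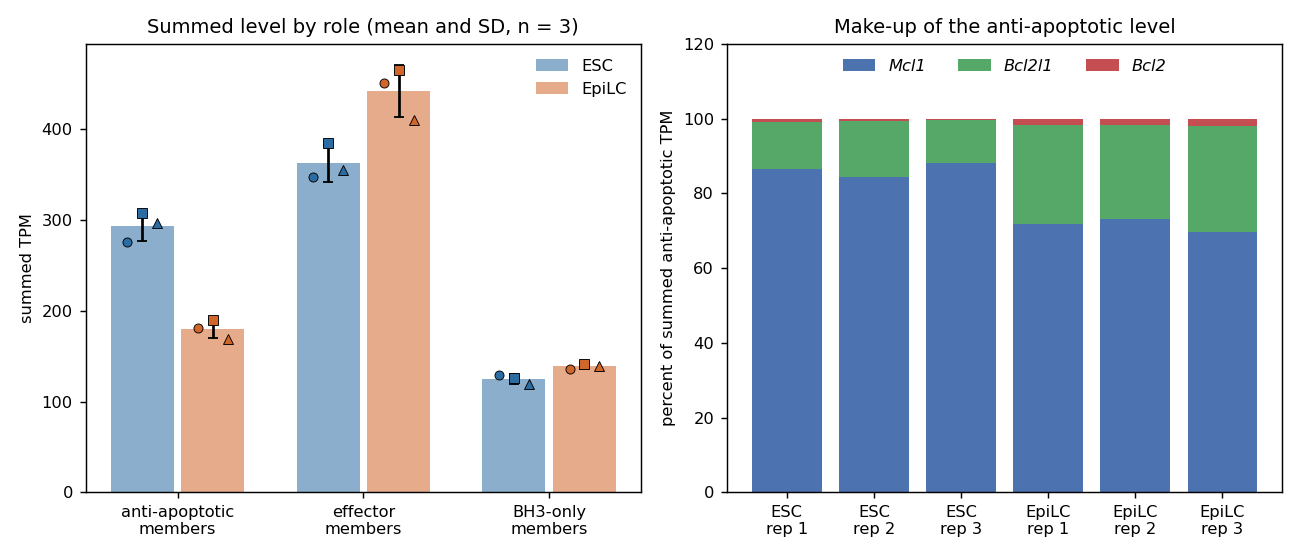
Left, summed level of the members of each role (TPM), with bars for the mean, error bars for the SD over 3 libraries and points for libraries. Right, percent of the summed anti-apoptotic TPM that came from Mcl1, Bcl2l1 and Bcl2 in each library, where the share of Mcl1 is 84.3% to 88.1% in ESCs and 69.7% to 73.3% in EpiLCs.

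The make-up of the anti-apoptotic level changed along with its size. Mcl1 made up 86.3 ± 1.88% of it in ESCs and 71.6 ± 1.78% in EpiLCs (SD, n = 3). The share of Bcl2l1 went from 13.1 ± 1.84% to 26.6 ± 1.63%, and that of Bcl2 from 0.589 ± 0.173% to 1.83 ± 0.165%. Mcl1 therefore remained the main anti-apoptotic transcript, at 6.68 ± 1.04 times the Bcl2l1 level in ESCs and 2.70 ± 0.231 times in EpiLCs. The shares are parts of a total that was smaller in EpiLCs, so the fall of Mcl1 by itself raises those of Bcl2l1 and Bcl2. Bcl2l1 averaged 38.6 TPM in ESCs and 47.8 TPM in EpiLCs and was not called. Among the BH3-only members, the share of Bcl2l11 was 11.2% in ESCs and 26.4% in EpiLCs, that of Bid 45.3% and 35.8%, and that of Bbc3 26.8% and 19.3%, without overlap of the libraries. The shares of Pmaip1 (15.3% and 16.98%) and Bik (1.36% and 1.60%) overlapped.

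The effector and BH3-only sums were each set against the anti-apoptotic sum, and neither ratio overlapped between the groups. Mcl1 made up 86.3% of the anti-apoptotic sum in ESCs and 71.6% in EpiLCs. Ratios to this sum, and those that hold Mcl1, therefore restate in large part the fall of Mcl1 and are not separate findings. The effector sum was 1.24 ± 0.0346 times the anti-apoptotic sum in ESCs and 2.45 ± 0.0304 times in EpiLCs (SD, n = 3). The ratio of BH3-only to anti-apoptotic TPM was 0.427 ± 0.0376 in ESCs and 0.774 ± 0.0432 in EpiLCs. Bax and Mcl1 were near parity in ESCs (Bax to Mcl1 1.08 ± 0.0434), whereas Bax was 2.68 ± 0.0661 times Mcl1 in EpiLCs. Mcl1 exceeded Bcl2l11 18.1 ± 0.903 times in ESCs and 3.54 ± 0.251 times in EpiLCs. Bax to Bak1, 3.05 and 3.59 on average, overlapped between the groups.

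The genes whose log2 CPM followed the 3 most changed members most closely over the 6 libraries were named by Pearson's r among genes that averaged 10 CPM or more, as a description. These were Syt11 (r = 0.999, log2 fold change 2.69) and Btbd3 (r = 0.999, 0.57) for Bcl2l11, Bcl3 (r = 0.998, -5.19) and Trps1 (r = 0.998, -3.08) for Mcl1, and Mrm3 (r = 0.999, 0.47) and Zmynd11 (r = 0.997, 0.66) for Bcl2. Since all 6 libraries share the contrast of ESC and EpiLC, 82 genes reached an r above 0.99 with Bcl2l11, 110 with Mcl1 and 16 with Bcl2.

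Of 16 further BCL2 family genes in the table, 10 could be tested, and of these 4 were called higher and 1 lower, with a median log2 fold change of 0.31. The share of 5 of 10 is near the 45.4% called among all genes tested. Bok, an effector-like relative of Bax and Bak1, measured 9.72, 12.38 and 10.17 TPM in ESC replicates 1, 2 and 3 and 24.31, 26.03 and 27.23 TPM in EpiLC replicates 1, 2 and 3, with no overlap. It had the largest difference of the list, a log2 fold change of 1.22 (SE 0.14, edgeR adjusted p = 6.89e-04), but at 25.9 ± 1.47 TPM in EpiLCs its level stayed below those of Bax and Bak1. Bcl2l12 (0.54, edgeR adjusted p = 0.0260), Bcl2l13 (0.34, 0.0236) and Bcl2l14 (0.93, 0.0132, named after its values were seen) were also called higher. The calls of Bcl2l12 and Bcl2l13 were lost without EpiLC replicate 1, 2 or 3, with adjusted p-values from 0.0701 to 0.0849 and from 0.0523 to 0.0817. Bnip3l, a mitophagy receptor, was called lower (-0.29, edgeR adjusted p = 0.0320), whereas the related Bnip3 was not called (-0.31, edgeR adjusted p = 0.387, with -0.54 without ESC replicate 2, 0.03 without ESC replicate 3 and -0.16 without EpiLC replicate 3). ESC replicate 2 was the only library whose removal kept the call of Bnip3l, and the others gave adjusted p-values from 0.0544 to 0.110. The 4 Bcl2a1 genes (Bcl2a1a, Bcl2a1b, Bcl2a1c and Bcl2a1d), near-identical copies of an anti-apoptotic gene of blood cells, were listed at 0 in all 6 libraries.

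**Figure D4:**
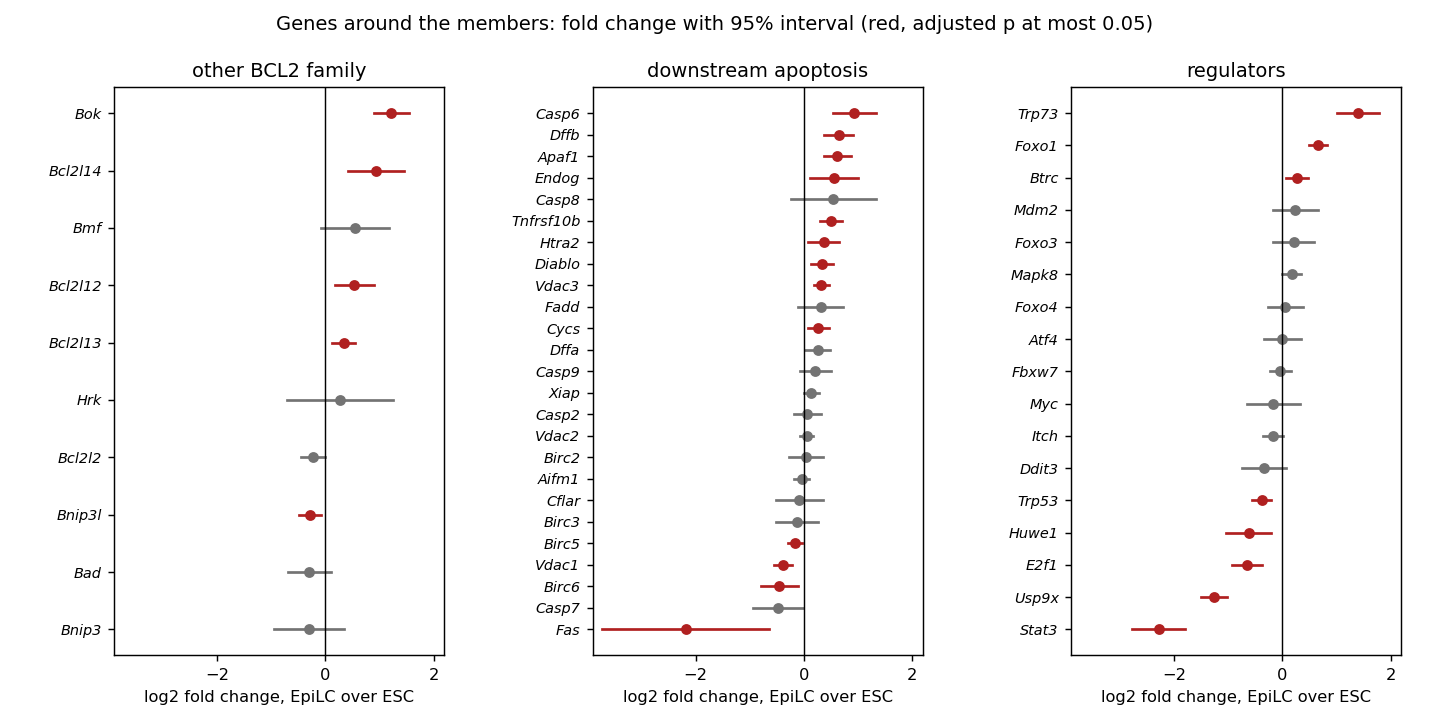
Log2 fold change of EpiLC over ESC with its 95% interval for each tested gene of the lists of other BCL2 family genes, genes downstream of them in apoptosis and regulators, in red where the edgeR adjusted p was at most 0.05. Bok (1.22) and Trp73 (1.40) lie highest in the panels of other family genes and regulators, and Fas (-2.19), Bnip3 (-0.31) and Stat3 (-2.29) lie lowest in theirs.

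Of 25 genes that act downstream of the family or in the death receptor route, 9 were called higher, 4 lower and 12 were not called, with a median log2 fold change of 0.21. In total, the 13 of 25 called are near the background of 45.4%. By direction, the 9 called higher are a larger share than the 22.6% of all genes. The 4 called lower are a smaller share than the 22.8% of all genes, and this imbalance was not tested. Parts of the apoptosome, which activates caspases once cytochrome c is released, were looked at after their values were seen. Apaf1, its scaffold, rose from 21.5 ± 0.524 to 34.2 ± 5.32 TPM (log2 fold change 0.61, edgeR adjusted p = 0.00392), and Cycs, which encodes cytochrome c, had a log2 fold change of 0.27 (edgeR adjusted p = 0.0330, but 0.0887, 0.0605 and 0.0955 without EpiLC replicates 1, 2 and 3). Casp9, the initiator caspase that Apaf1 recruits, was not called (0.21, edgeR adjusted p = 0.195, with 0.11 without ESC replicate 2 and 0.32 without ESC replicate 3).

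The genes called lower downstream were Fas, Vdac1, Birc6 and Birc5. Fas, a death receptor, measured 2.61, 7.80 and 1.69 TPM in ESC replicates 1, 2 and 3 and 1.32, 1.17 and 0.38 TPM in EpiLC replicates 1, 2 and 3. It was highest in ESC replicate 2, the library with the highest fibroblast markers, and its log2 fold change of -2.19 (SE 0.65, edgeR adjusted p = 0.0312) became -1.35 without that library, which was not called (edgeR adjusted p = 0.0539). Leaving out any 1 EpiLC library also ended the call of Fas, with adjusted p-values of 0.0739, 0.0727 and 0.0932 without EpiLC replicates 1, 2 and 3. Of the voltage-dependent anion channels of the outer mitochondrial membrane, Vdac1 was lower (log2 fold change -0.39, edgeR adjusted p = 0.00429), Vdac3 was higher (0.32, 0.00511) and Vdac2 was not called (0.05, 0.482, and 0.02 to 0.08 without 1 library). Birc5, which encodes survivin, had a log2 fold change of -0.17 (edgeR adjusted p = 0.0430), and Birc6, named after its values were seen, one of -0.46 (0.0380). The call of Birc5 was kept without ESC replicate 2 and lost without any other library (adjusted p from 0.0957 to 0.151). That of Birc6 was lost without ESC replicate 1 (0.0587), ESC replicate 3 (0.0862), EpiLC replicate 1 (0.128) or EpiLC replicate 3 (0.119).

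Among 17 tested regulators of the members, 3 were called higher, 5 lower and 9 were not called, with a median log2 fold change of -0.04. This share, 8 of 17, is also near the 45.4% of all genes. Stat3, which carries the LIF signal and is a known activator of Mcl1 transcription, fell from 64.2 ± 4.62 to 13.6 ± 4.17 TPM (SD, n = 3). Its log2 fold change was -2.29 (SE 0.21, edgeR adjusted p = 3.41e-04). Usp9x, an X-linked deubiquitinase known to stabilise MCL1 protein, fell from 144 ± 15.8 to 61.9 ± 5.82 TPM (log2 fold change -1.27, SE 0.10, edgeR adjusted p = 2.18e-04). Huwe1, a ubiquitin ligase that marks MCL1 for degradation, was also called lower (log2 fold change -0.62, edgeR adjusted p = 0.0262), but not without ESC replicate 1 (0.0538), EpiLC replicate 1 (0.0923) or EpiLC replicate 3 (0.0918), and its log2 fold change was -0.41 without ESC replicate 3.

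Of the p53 family, Trp53 fell slightly from 473 to 377 TPM (log2 fold change -0.38, edgeR adjusted p = 0.00633), and Trp73 rose from 3.10 to 8.48 TPM (1.40, 8.71e-04). Mdm2, which is both a target and the inhibitor of p53, was not called (0.24, edgeR adjusted p = 0.296, with 0.41 without ESC replicate 2, 0.12 without ESC replicate 3 and 0.37 without EpiLC replicate 3), and neither were the p53 targets Bbc3 and Pmaip1 above, while Bax was called higher. Atf4, an activator in the stress response, was not called, and its log2 fold change of 0.00 (edgeR adjusted p = 0.997) changed sign between alternative fits (from -0.14 without ESC replicate 2 to 0.16 without ESC replicate 3). The other regulators called were Foxo1 (0.65, edgeR adjusted p = 5.81e-04), Btrc (0.27, 0.0387) and E2f1 (-0.66, 0.00431), named after their values were seen. Leaving out any 1 of the 6 libraries ended the call of Btrc, with adjusted p-values from 0.0506 to 0.108. FOXO factors are known activators of Bcl2l11, and the other FOXO genes of the list, Foxo3 (0.21, edgeR adjusted p = 0.319) and Foxo4 (0.05, 0.781), likewise named afterwards, were not called. Both depended on single libraries, as Foxo3 was 0.07 without ESC replicate 2, 0.34 without ESC replicate 3 and 0.14 without EpiLC replicate 2, and Foxo4 ranged from -0.06 without ESC replicate 3 to 0.20 without ESC replicate 1. Whether the RNA levels of any regulator bear on those of the members was not tested.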

How the data were processed

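Poly(A) RNA of 3 ESC and 3 EpiLC libraries (KAPA mRNA HyperPrep, 76 bp single-end, strand-specific) was trimmed by the authors with cutadapt 1.16, aligned with STAR 2.5.2a and counted with RSEM 1.3.0 against mm10 RefSeq genes. The authors deposited RSEM expected counts, not normalized and between 4.27% and 4.65% of them not whole, and TPM, scaled for transcript length. Reads with several possible genes of origin are split among these by RSEM. The culture methods of the study give 72 h for EpiLCs. Its results section gives 48 h with FGF and LGK974, the time that was also read from the labels of these libraries.

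Expected counts were rounded and tested with edgeR 4.0.16 in R 4.3.3 (TMM factors 0.979 to 1.02, filterByExpr, quasi-likelihood test, Benjamini-Hochberg adjustment over 14468 of 24736 genes, threshold 0.05). The test was first tried on simulated counts. The study used DESeq2 1.16.1. Alternatives were DESeq2 1.42.0, upper-quartile normalization, DESeq2 size factors in edgeR, no filter, at least 10 counts in every sample, a replicate block, limma 3.58.1 on log2(TPM + 1) and log2(TPM + 0.1), and leaving out each library. Groups come from the sample labels. Log2 CPM used a prior count of 2. The text names all members, list genes called with an absolute log2 fold change above 1, and the 4 most abundant others per list, with exceptions stated. The members and lists were chosen with earlier results of these data known. 1 gene of the downstream list is not reported here. Protein sequences were not used here.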

Additional observations from a re-analysis of the deposited data

How the results depend on the processing

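Over the 6 fits without 1 library, the genes called ranged from 4244 to 7181 (2144 to 3572 higher, 2100 to 3609 lower), the members called higher from 1 to 4 and lower from 1 to 2, the other BCL2 family genes higher from 2 to 5 and lower from 0 to 1, and the downstream genes higher from 5 to 11 and lower from 1 to 4. The lowest count over all genes and of members called higher came without EpiLC replicate 1. Only 1 member was called lower with upper-quartile normalization, no filter or the replicate block, since Bid was lost. Other BCL2 family genes called lower numbered 0 with upper-quartile normalization and with limma on log2(TPM + 1) or log2(TPM + 0.1), and downstream genes called lower numbered 2 with the replicate block and with both limma fits. Directions turned for Bak1 (leave-one-out range -0.010 to 0.076, the lowest without ESC replicate 3) and Pmaip1 (-0.10 to 0.41, with -0.014 without ESC replicate 3 and -0.10 without EpiLC replicate 3). They also turned for Bnip3 (leave-one-out range -0.54 to 0.028, the highest without ESC replicate 3), Foxo4 (leave-one-out range -0.063 to 0.20, the lowest without ESC replicate 3) and Atf4 (leave-one-out range -0.14 to 0.16, and -0.0086 with DESeq2 and with DESeq2 size factors in edgeR), and the cause was not tested. Alternatives for list genes were added after seeing the data, and Fas could not be fitted with at least 10 counts in every sample. Of 140 member values under alternatives, 125 kept direction and side of the threshold.

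The deviations of same-numbered libraries correlated at 0.0067, 0.186 and 0.171 for replicates 1, 2 and 3. ESC replicates 2 and 3 correlated best with the EpiLC library of the same number, but ESC replicate 1 with EpiLC replicate 3 (0.0836). The replicate numbers were not taken to pair the libraries, and these values do not exclude a pairing. With the replicate block, 6085 genes were called, 2979 higher and 3106 lower, against 6571 without it. With TMM-rescaled TPM, the sums by role moved by less than 1 SD. Among the members, depth limits Bik and Bcl2 most, whose lowest counts per library were 14 and 76, and the lowest count of Fas was 8.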
